A study of Homo sapiens with 12 samples.

Results

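The 10 genes described here are ATF4 and 9 genes that act with it in the cellular stress response: ATF5, DDIT3, PPP1R15A, PPP1R15B, TRIB3, CHAC1, DDIT4, SESN2 and IFRD1. They were taken by gene name from a count table of 20212 protein-coding genes, and all 10 were among the 13329 genes with enough reads to be tested. The cells were PANC-1, an established human pancreatic ductal carcinoma line that the study describes as having lost the translational repressor 4EBP1. They received either DMSO, the solvent, or 50 nM rapamycin, an inhibitor of the mTORC1 kinase complex, for 60 min, and neither group was given an agent that provokes stress. From each of 3 cultures per treatment, a library of ribosome-protected fragments (RF) and a library of total RNA were made, 12 libraries in all. The RF and RNA libraries of a culture were matched by the number in their labels. The labels do not say whether the cultures were grown and treated on separate days, so the p-values measure the spread between these 3 samples a group.

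The integrated stress response works through the initiation factor eIF2. When 1 of its kinases phosphorylates eIF2, initiation falls on most mRNAs, while a small set of mRNAs with upstream reading frames (uORFs) in their leaders keeps or gains ribosomes on the main coding sequence. ATF4 is the best known of them, and its protein is a transcription factor that turns on genes of amino acid supply, of redox defence and of its own feedback, several of the other genes described here among them. mTORC1 is also known to support ATF4 production in growing cells.

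The leaders were read from the GENCODE annotation of GRCh37, because the position of each upstream ATG decides whether a ribosome that starts there can still reach the annotated start codon. In ATF4 (chr22:39915700-39918688, plus strand), the MANE Select transcript has a leader of 282 bases with 3 upstream ATGs. It could not be matched to an isoform FPKM value (fragments scaled to transcript length and depth), and the isoform that held 89.21% of the FPKM of ATF4 uses another splice acceptor. In the MANE Select transcript the first ATG opens a frame of 1 codon and the second a frame of 3 codons, and the third opens a frame of 59 codons that runs 83 bases past the start codon. The isoform with the highest FPKM has 6 upstream ATGs in a leader of 364 bases, and 2 of them open overlapping frames, of 63 and 50 codons, that end 4 bases past the start. ATF5 (chr19:50431959-50437192, plus strand) has a leader of 315 bases with 2 upstream ATGs, and its second opens a frame that also has 59 codons and runs 56 bases past the start. DDIT3 (chr12:57910371-57915520, minus strand) has 3 upstream ATGs in a leader of 177 bases, in an isoform that held 49.39% of its FPKM. Its first 2 share 1 frame of 34 and 31 codons, and the third lies 32 bases before the start codon and opens a frame that runs 190 bases past it. The 2 next most abundant isoforms of DDIT3 had no overlapping frame. In PPP1R15A (chr19:49375469-49379316, plus strand), both upstream frames, of 22 and 26 codons, end inside the leader of 240 bases. The starts of these 4 genes are shown 5′ to 3′ because they carry both arrangements, the frame that overlaps the coding sequence and the frame that ends before it. Capitals mark the ATG.
ATF4 (MANE Select) upstream ATG 1: cgcccacagATGtag
ATF4 (MANE Select) upstream ATG 2: acggccaccATGgcg
ATF4 (MANE Select) upstream ATG 3: gcttaagccATGgcg
ATF4 (highest FPKM) upstream ATG 4: agccatggcATGgcc
ATF4 (highest FPKM) upstream ATG 5: agtggaaggATGaaa
ATF4 start codon, both isoforms: caccgcaacATGacc
ATF5 upstream ATG 1: gccccggccATGgct
ATF5 upstream ATG 2: gctgcagccATGgag
ATF5 start codon: gctacagccATGtca
DDIT3 upstream ATG 1: gagcgtatcATGtta
DDIT3 upstream ATG 2: atgttaaagATGagc
DDIT3 upstream ATG 3: tgaaagcagATGtgc
DDIT3 start codon: actgcagagATGgca
PPP1R15A upstream ATG 1: gttgatcttATGcaa
PPP1R15A upstream ATG 2: gagggtgagATGaac
PPP1R15A start codon: cccagacacATGgcc

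The overlapping frames of ATF5 and of the MANE Select transcript of ATF4 both open at an ATG with a purine at the third base before it and a G directly after it. The third upstream ATG of DDIT3, which opens its overlapping frame, has neither. In the ATF4 isoform with the highest FPKM, the fourth upstream ATG has both and the fifth has only the purine.

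The leaders of the other 6 genes were of several kinds. PPP1R15B (chr1:204365620-204381015, minus strand) had upstream frames of 8 and 51 codons in a leader of 406 bases. TRIB3 (chr20:343479-378203, plus strand) had 2 upstream frames of 77 and 14 codons that overlap each other, and both ended more than 100 bases before the start codon. SESN2 (chr1:28586029-28609002, plus strand) had 1 frame of 19 codons near the 5′ end. IFRD1 (chr7:112062942-112121072, plus strand) had 1 frame of 52 codons in an isoform that held 57.38% of its FPKM. DDIT4 (chr10:74033678-74035794, plus strand) and the MANE Select transcript of CHAC1 (chr15:41245160-41248710, plus strand) had no upstream ATG in leaders of 201 and 113 bases. Of the 12800 tested genes with an annotated ATG start codon, 43.36% had at least 1 upstream ATG and 15.6% had a frame that ran past the start codon. Their median leader was 138 bases, with no minimum length set. The isoform with the highest FPKM was used for each gene, but for ATF4 and CHAC1 the MANE Select isoform was added after the data were seen. The CHAC1 isoform with the highest FPKM held 26.65% of the FPKM of the gene and codes for only 37 codons. It has 4 upstream ATGs in a leader of 346 bases, of which the last opens a frame that runs 286 bases past the start, and the MANE Select transcript of CHAC1 had no matched FPKM value.

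**Figure D1:**
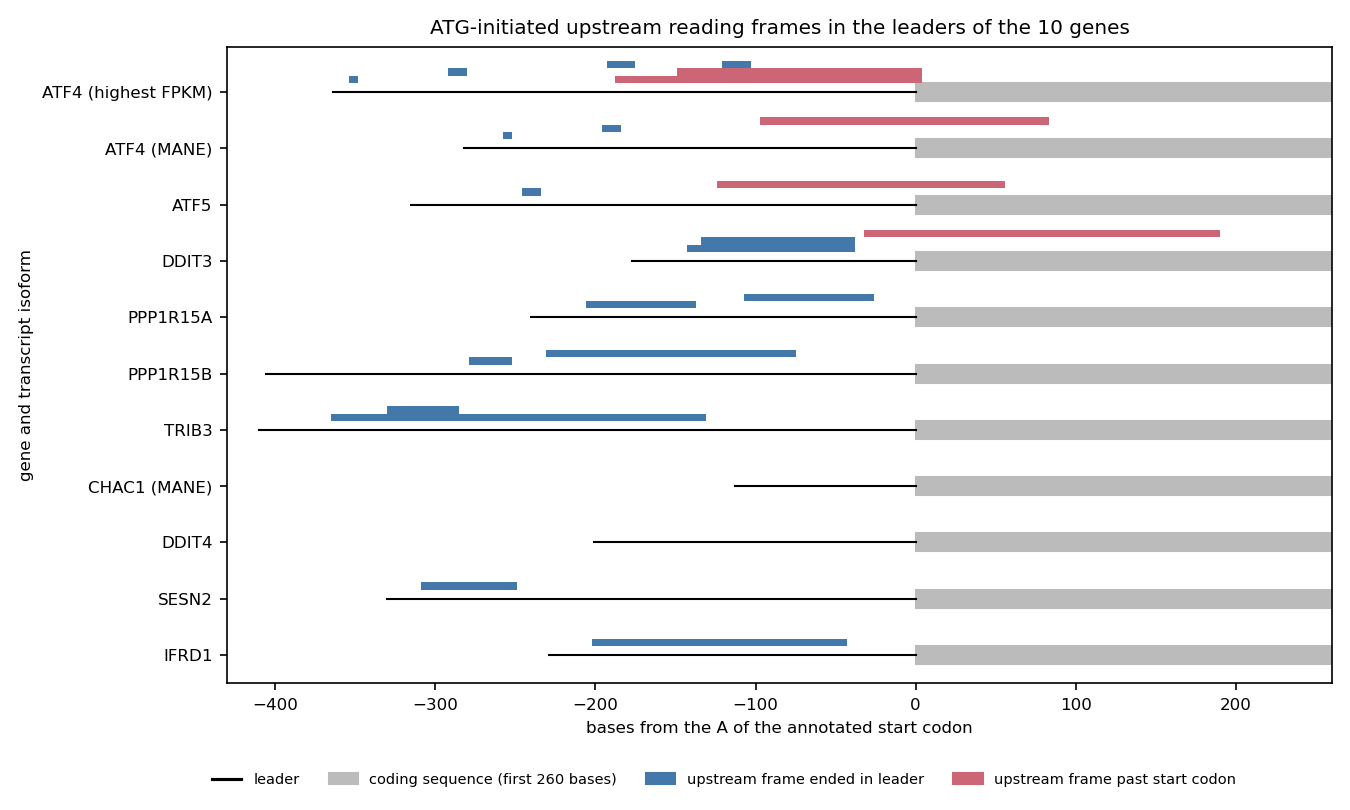
Upstream reading frames that begin with ATG in the leaders of the 10 genes, with the position in bases from the A of the annotated start codon on the x axis and 1 isoform per line. Black lines are leaders and grey boxes the start of the coding sequence. Blue bars are frames that ended in the leader and red bars frames that ran past the start codon. In the isoforms drawn, red bars are in ATF4, ATF5 and DDIT3, while CHAC1 (MANE) and DDIT4 have no bar. The CHAC1 isoform with the highest FPKM is not drawn.

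The depth of the libraries limited the RF values far more than the RNA values. Total counts were 278835 to 1574723 per RF library and 78081241 to 94293744 per RNA library, and the 10 genes together had 109 to 589 RF counts per library. The limit that a count of 0 allows (3 counts) was 2.04 to 9.98 CPM in the RF libraries, where CPM is the count scaled to library size by edgeR's TMM method within a library type, and it covers counting error only. The biological coefficient of variation between cultures was 54.9% in RF and 5.31% in RNA. DMSO RNA libraries 1 and 2 stood apart in the number of genes with a count, 16840 and 16858 against 19751 to 19847 in the other 4. The keratins KRT8, KRT18 and KRT19 and vimentin (VIM) were read in every RF library at 320 counts or more, KRT7 and EPCAM reached at most 8 and 35 RF counts, and 6 markers of acinar, islet and blood cells reached at most 2.

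Total RNA of the 10 genes was measured first, as the base for TE, the RF level relative to RNA. ATF4 was the most abundant per length, at 154 ± 3.12 FPKM in DMSO and 149 ± 2.86 in rapamycin (SD, n = 3). DDIT4, which encodes the mTORC1 inhibitor REDD1, and PPP1R15B, the constitutive targeting subunit of the eIF2 phosphatase, followed at 61.0 ± 2.60 and 60.6 ± 1.35 FPKM in DMSO and did not differ beyond their spread. IFRD1, a transcriptional coregulator, was at 51.4 ± 2.31 and DDIT3, the transcription factor CHOP, at 49.4 ± 2.65, again within their spread. PPP1R15A, the stress-induced phosphatase subunit GADD34, was at 44.6 ± 2.01. TRIB3, a pseudokinase that restrains ATF4, was at 24.0 ± 0.595 and ATF5, a transcription factor related to ATF4, at 20.97 ± 0.693 FPKM. SESN2, a leucine sensor that inhibits mTORC1, was at 11.7 ± 0.452, and CHAC1, an enzyme that degrades glutathione, was lowest at 6.93 ± 0.573.

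After 60 min of rapamycin the RNA of these genes was within 0.08 of its DMSO level on the log2 scale. These are bulk measurements, which cannot tell fewer cells with an mRNA from less of it per cell. The log2 fold changes of RNA counts ran from -0.06 for ATF5 to 0.08 for DDIT4, with a median of -0.02 against 0.01 over all genes. None of the 10 was called by edgeR's quasi-likelihood test after Benjamini-Hochberg adjustment, as was the case for 0% of all 13329 genes, and 0 of the 10 against 5.82% of all genes were under an unadjusted p of 0.05. DESeq2's Wald test called 29 genes in RNA, none of them among the 10. ATF4 had 229, 238 and 229 RNA CPM in DMSO and 226, 219 and 227 in rapamycin. Its rapamycin values all lay below its DMSO values, a difference of -0.05 on the log2 scale (SE 0.03, adjusted p = 0.766). DDIT4 had 43.8, 44.8 and 44.8 RNA CPM in DMSO and 46.6, 46.3 and 47.8 in rapamycin, all higher, with a log2 fold change of 0.08 (SE 0.04, adjusted p = 0.766). These were 2 of the 10 genes without overlap, where 14.8% of all genes tested had none. The 95% confidence intervals of all 10 lay between -0.17 and 0.16 on the log2 scale. Leaving out the 2 DMSO RNA libraries that stood apart, a step chosen after seeing the data, gave ATF4 -0.03 and DDIT4 0.07.

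Of the 10 genes, ATF5 had the RF difference that was largest against its error. Its RF level was 46.1, 36.4 and 36.7 CPM in the DMSO cultures and 85.4, 76.2 and 73.2 CPM in the rapamycin cultures, from 15 to 54 counts in DMSO and 22 to 103 in rapamycin. Every rapamycin culture lay well above every DMSO culture. The means were 39.8 ± 5.53 and 78.3 ± 6.35 CPM (SD, n = 3), and the 95% confidence interval of the log2 fold change of RF was 0.16 to 1.84 (SE 0.40). Relative to RNA, log2 TE per culture was 0.11, -0.32 and -0.27 in DMSO and 0.98, 0.94 and 0.74 in rapamycin. The TE fit estimated 1 spread per gene over RF and RNA libraries together, although their spread differed as given above, so its standard errors and unadjusted p-values can be too small. The 2 groups did not overlap, and the two-sided exact permutation p was 0.1, the smallest that 3 against 3 can give. The TE fold was 2.14, or 1.09 on the log2 scale (SE 0.31, 95% confidence interval 0.42 to 1.77), and it did not pass edgeR's quasi-likelihood test across all genes (adjusted p = 0.231). With voom and a variance per library type the SE was 0.43, and with a culture block, which keeps the RF and RNA libraries of a culture together, it was 0.49 and the unadjusted p 0.0508. DESeq2's Wald test, which also pools the spread and made many false calls on simulated counts, called it (adjusted p = 7.33e-06), alone among the 10, while it called 9.4% of all genes tested. The other fits gave adjusted p-values from 0.0616 to 1, and leaving out any 1 culture kept the value between 1.04 and 1.20.

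PPP1R15A was the only other gene whose RF levels did not overlap. The DMSO cultures gave it 4, 11 and 23 RF counts and the rapamycin cultures 22, 21 and 11, or 12.3, 13.8 and 15.6 CPM against 18.2, 25.4 and 36.6 CPM. The log2 fold change of RF was 0.88 (SE 0.68, adjusted p = 0.9999 in edgeR's quasi-likelihood test). Its log2 TE was -3.09, -3.04 and -2.82 in the DMSO cultures and -2.60, -1.97 and -1.53 in the rapamycin cultures, also without overlap. The TE change was 0.82 (SE 0.37, adjusted p = 0.388), with an SE below that of RF alone. With voom and a variance per library type the TE change was 0.72 (SE 0.72, unadjusted p = 0.33). With a culture block it was 0.895 (SE 0.51, unadjusted p = 0.103). Both p-values were larger than that of edgeR's quasi-likelihood test in the main fit (unadjusted p = 0.047). Leaving out single cultures gave 0.64 to 1.12. So 2 of the 10 genes, ATF5 and PPP1R15A, were higher in every rapamycin culture in both RF and TE, where 5.24% of all genes tested were so in RF and 4.85% in TE. PPP1R15B, which targets the same phosphatase without needing stress, had 26 to 145 RF counts a library and 80.0, 77.9 and 98.5 CPM in DMSO against 77.9, 99.2 and 123 CPM in rapamycin. These groups overlapped, and its TE change was 0.17 (SE 0.60, adjusted p = 0.934).

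**Figure D2:**
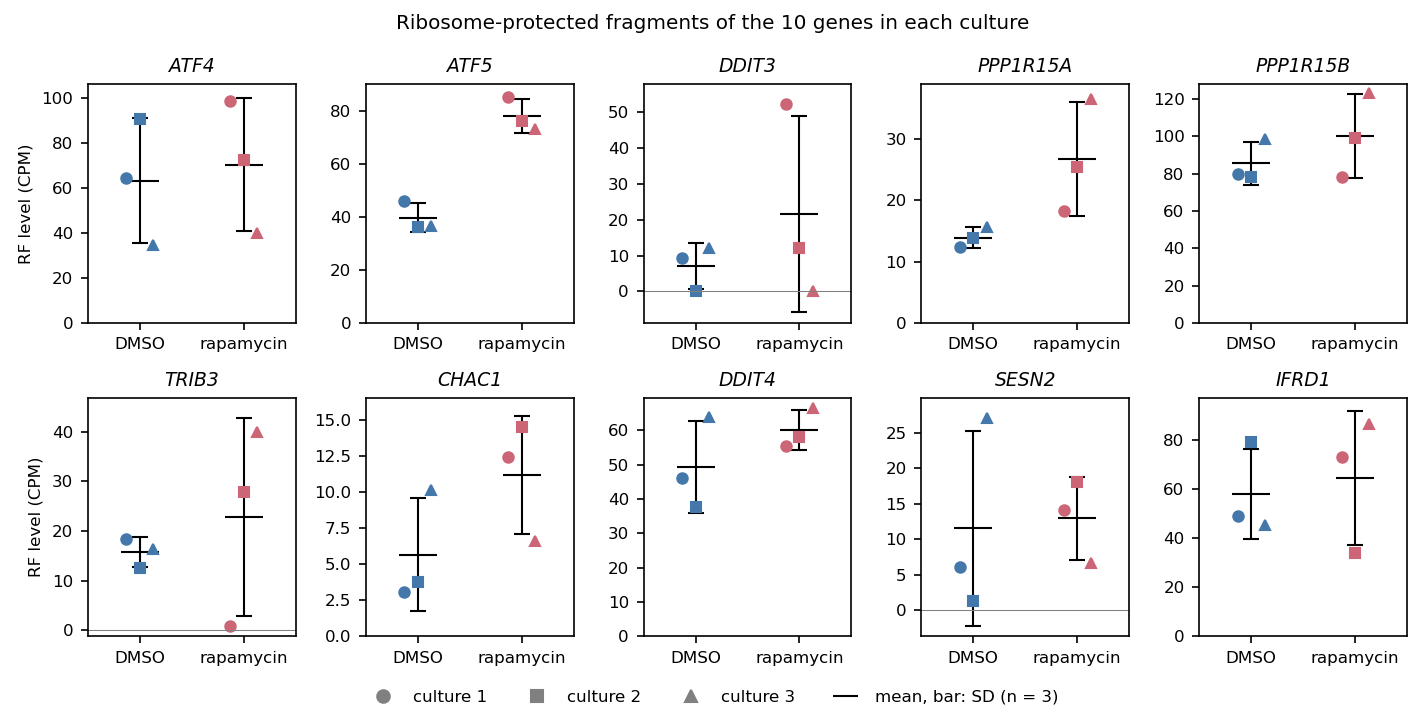
RF level in CPM (y axis, linear and including 0) of each gene in the 3 DMSO cultures (blue) and the 3 rapamycin cultures (red), with the mean and SD (n = 3) in black. ATF5 (36.4 to 46.1 against 73.2 to 85.4 CPM) and PPP1R15A (12.3 to 15.6 against 18.2 to 36.6 CPM) are without overlap, and the groups of the other 8 genes overlap.

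ATF4 itself varied more between cultures than between treatments. Its RF level was 64.6, 90.5 and 34.6 CPM in DMSO and 98.7, 72.6 and 39.9 CPM in rapamycin, from 12 to 119 counts a library. The lowest and the highest DMSO culture enclosed all rapamycin cultures but the first. The means were 63.2 ± 27.9 and 70.4 ± 29.4 CPM, and on the log2 scale RF differed by 0.20 (SE 0.45) and TE by 0.35 (SE 0.41, 95% confidence interval -0.53 to 1.24, adjusted p = 0.769). With DMSO culture 3 left out the TE value was -0.04, and with DMSO culture 2 left out it was 0.85. The interval covers both no change and a TE more than 2-fold higher (log2 above 1), so ATF4 could not be placed from these cultures.

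DDIT3, whose product CHOP promotes cell death under long stress, had the highest TE estimate and the widest spread. Its RF counts were 3, 0 and 18 in the DMSO cultures and 63, 10 and 0 in the rapamycin cultures. Rapamycin culture 1 held nearly all of the difference, at 52.2 CPM, while rapamycin culture 3 with 0 counts allowed up to 9.98 CPM and DMSO culture 2 with 0 allowed up to 3.77 CPM. The TE change was 1.79 (SE 0.92, 95% confidence interval -0.17 to 3.76, adjusted p = 0.438), and without rapamycin culture 1 it was 0.12. Without DMSO culture 3 it was 3.45.

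TRIB3 and CHAC1, both transcribed under ATF4, had few RF counts and differed between cultures of the same treatment. In DMSO, TRIB3 was counted 6, 10 and 24 times in RF, and in rapamycin 1, 23 and 12 times. The single count in rapamycin culture 1, one of the deeper RF libraries, was 0.829 CPM, while the other rapamycin cultures were at 27.8 and 39.9 CPM, above the DMSO range of 12.6 to 18.5 CPM. Its TE change was 0.22 (SE 0.82, adjusted p = 0.939) and 1.07 (SE 0.44) without rapamycin culture 1. For CHAC1 the RF counts were 1, 3 and 15 with DMSO and 15, 12 and 2 with rapamycin, or 3.08, 3.77 and 10.2 CPM against 12.4, 14.5 and 6.65 CPM. The groups overlapped through DMSO culture 3 and rapamycin culture 3. The TE change was 0.76 (SE 0.51, adjusted p = 0.57), and without DMSO culture 3 it was 1.76.

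DDIT4 and SESN2 both encode inhibitors of mTORC1. DDIT4 had 46.1, 37.7 and 63.9 RF CPM in DMSO and 55.5, 58.1 and 66.5 CPM in rapamycin. The third DMSO culture lay within the rapamycin range, and the TE change was 0.15 (SE 0.34, adjusted p = 0.892). For SESN2 the counts of RF were 2, 1 and 40 with DMSO and 17, 15 and 2 with rapamycin. DMSO culture 3 reached 27.2 CPM against 6.15 and 1.26 in the other DMSO cultures, and the rapamycin cultures were at 14.1, 18.2 and 6.65 CPM. SESN2 was the only one of the 10 with a TE estimate below 0, at -0.16 (SE 0.61, adjusted p = 0.939), and the sign changed without DMSO culture 3 (2.43, adjusted p = 0.108) and without rapamycin culture 3 (0.15). IFRD1, whose mRNA is known to be stabilised under stress by way of its uORF, had 49.2, 79.2 and 45.5 RF CPM in DMSO and 73.0, 33.9 and 86.5 CPM in rapamycin. Its second rapamycin culture was the lowest of all 6, and its TE change was 0.12 (SE 0.40, adjusted p = 0.932).

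Over the 10 genes, the RF estimate was above 0 in 10 and the TE estimate in 9, and none passed the test in RF or in TE. Their median on the log2 scale was 0.36 for RF and 0.29 for TE, where all genes had 0.02 and -0.06. Of the 12800 tested genes with an annotated ATG start codon, 46.33% had a TE estimate above 0. In edgeR's quasi-likelihood test 0% of all genes were called in RF or in TE, and DESeq2's Wald test called none of the 10 in RF. At an unadjusted p under 0.05, 1 of the 10 was higher in RF (ATF5) against 1.76% of all genes, and 2 were higher in TE (ATF5 and PPP1R15A) against 6.17% of all genes. That count in TE depends on the fit. It was 0 of 10 with a culture block, against 1.41% of all genes, and 1 (ATF5) both with voom and a variance per library type, against 3.0%, and with TMM over all libraries, against 5.09%. The summed RF level of the 10 was 335, 353 and 361 CPM in DMSO and 488, 438 and 479 CPM in rapamycin. Without ATF5 it was 289, 317 and 324 against 403, 362 and 406 CPM, still without overlap. Their summed RNA was 1039, 1049 and 1028 CPM in DMSO and 1030, 1009 and 1026 CPM in rapamycin. The sums and the counts of estimates above 0 are descriptions, since the genes share libraries and were chosen with results known.

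**Figure D3:**
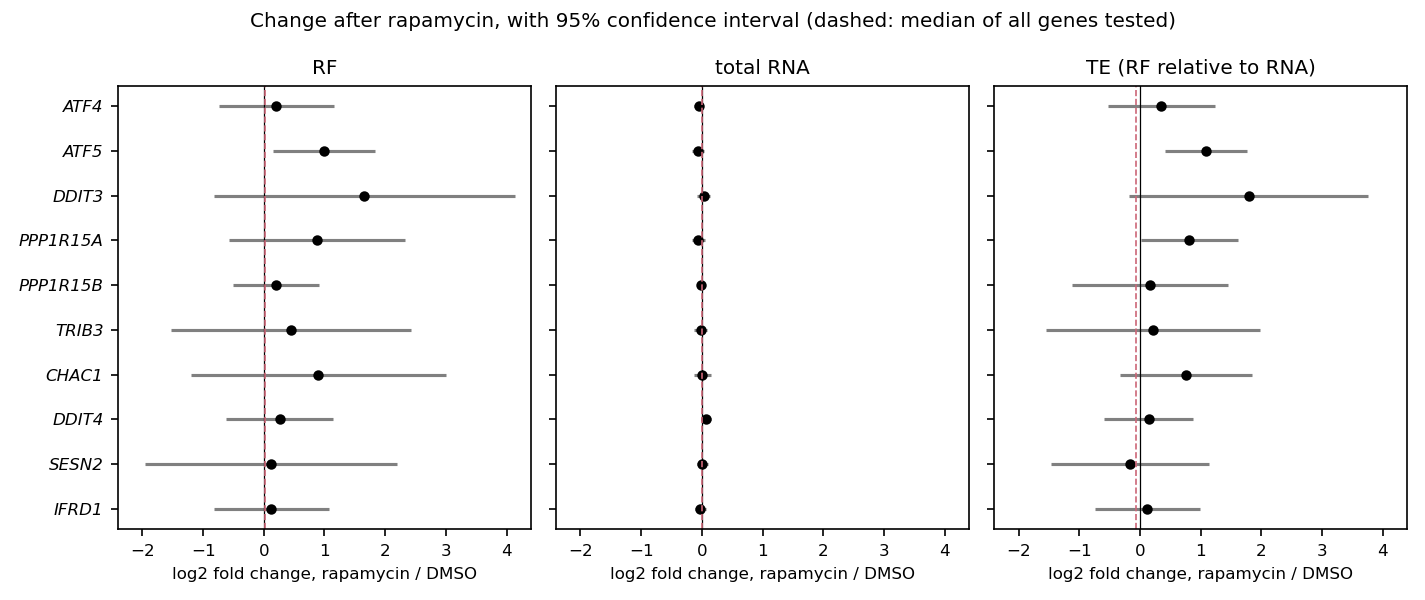
Log2 fold change of rapamycin over DMSO (x axis, the same scale in each panel) in RF, total RNA and TE for the 10 genes, with 95% confidence intervals as bars and the median of all genes tested as a dashed line. RNA estimates lie between -0.06 and 0.08, all 10 RF estimates and 9 TE estimates are above 0, and the TE intervals, which rest on a spread pooled over RF and RNA libraries, exclude 0 for ATF5 (0.42 to 1.77) and PPP1R15A (0.01 to 1.62), which was lost with a culture block for both genes and with a variance per library type for PPP1R15A.

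**Figure D4:**
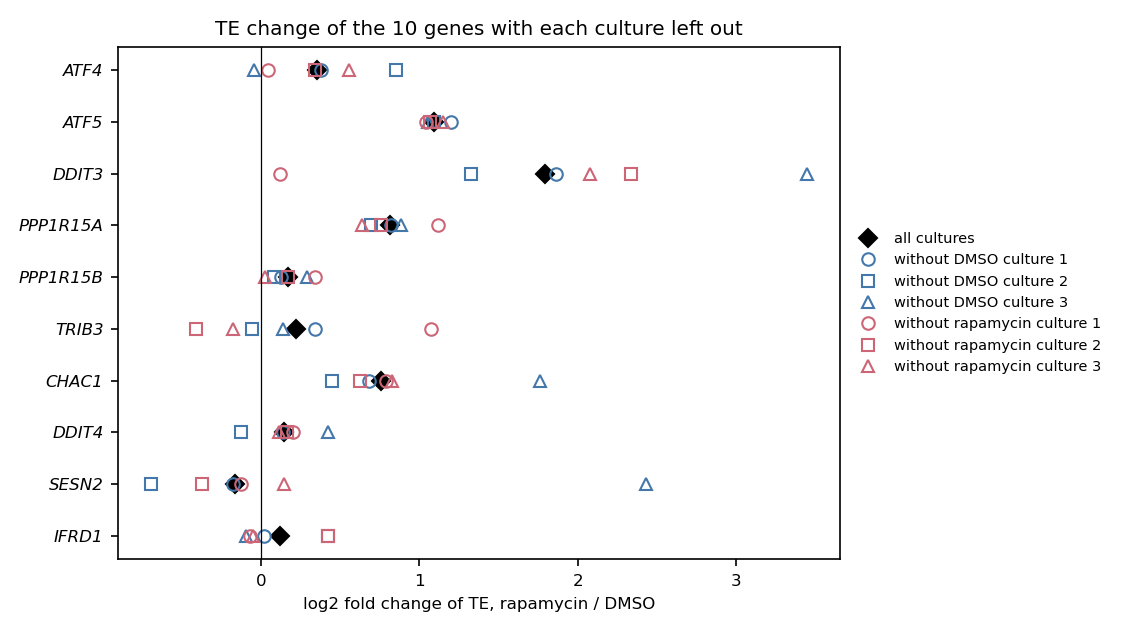
Log2 fold change of TE for the 10 genes (x axis) from all cultures (black diamonds) and with each DMSO (blue) or rapamycin (red) culture left out. ATF5 stays between 1.04 and 1.20 and PPP1R15A between 0.64 and 1.12, while DDIT3 spans 0.12 to 3.45 and SESN2 -0.69 to 2.43.

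Without drug, the RF level relative to RNA differed widely among the 10 mRNAs. The TE levels came from the joint fit of RF and RNA, so their standard errors and p-values can also be too small. TE in DMSO was lower than the level at which RF and RNA shares are equal, at an adjusted p under 0.05, for 7 of the 10 genes, against 42.7% of all genes tested. PPP1R15A was at -2.93 (SE 0.27, adjusted p = 6.68e-07), below which lay 4.7% of all genes, and DDIT3 at -2.65 (SE 0.69, adjusted p = 0.00433), with its own low counts. These 2 did not differ beyond their errors, and without DMSO culture 3 DDIT3 was at -4.16 and SESN2 at -4.13, below PPP1R15A at -3.02. TRIB3, PPP1R15B and ATF4 lay together at -1.94 (SE 0.56), -1.93 (SE 0.17) and -1.92 (SE 0.30) and did not differ beyond their errors. SESN2 was at -1.53 (SE 0.36), but leaving out single cultures gave it -4.13 to -0.98, and it was not called without DMSO culture 1 (adjusted p = 0.0542). IFRD1 was at -0.93 (SE 0.29) and was not called without DMSO culture 1 (adjusted p = 0.0726) or without DMSO culture 3 (adjusted p = 0.0886). CHAC1 at -0.65 (SE 0.37), ATF5 at -0.19 (SE 0.23) and DDIT4 at 0.18 (SE 0.24) were not called, and the median of all genes was -0.58. Of all genes tested, 6.8% lay below DDIT3, 15.42% to 15.71% below TRIB3, PPP1R15B and ATF4, and 23.71% below SESN2. IFRD1 was above 39.9% of all genes, CHAC1 above 48.26%, ATF5 above 60.52% and DDIT4 above 68.26%. CHAC1 was called lower without DMSO culture 3, at -1.65, and DDIT4 higher without DMSO culture 2, at 0.45. Leaving out 1 culture at a time gave 5 to 8 calls in either direction among the 10 genes. Over all genes it gave 7021 to 8194 such calls, with 12461 to 13134 genes tested.

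ATF4 and ATF5, both with an upstream frame that overlaps the start in the isoforms described above, lay apart in TE level, at -1.92 and -0.19. Their confidence intervals, -2.56 to -1.28 and -0.68 to 0.30, did not overlap, but they rest on the pooled spread and can be too narrow. No test of the difference was made. Medians of log2 TE in DMSO were also taken over the tested genes with an annotated ATG start codon. They were -0.49 for 7250 genes without an upstream ATG and -0.83 for 5550 genes with at least 1. The median share of exonic bases that were coding also differed, at 56.85% without and 50.92% with an upstream ATG. Its part in the TE difference was not tested. The median TE change after rapamycin was -0.04 without and -0.10 with an upstream ATG, and the median RF change was 0.02 in both. Counts covered whole exons, so fragments on an upstream frame count as RF of the gene and cannot be told apart from those on the coding sequence. Bases after the coding sequence count too. In the isoforms with the highest FPKM they made up 3.62% (PPP1R15A) to 51.55% (PPP1R15B) of the transcript, and their part in the TE level was not tested.

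With TMM taken over all 12 libraries at once, the median log2 TE of all genes moved from -0.58 to -0.01, and 5 of the 10 genes were called lower, against 24.3% of all genes, while DDIT4 was called higher at 0.76. Over all genes the calls then split into 3240 lower and 3795 higher, against 5688 lower and 2838 higher with TMM within library type. With DMSO RNA libraries 1 and 2 left out, ATF4, PPP1R15A and PPP1R15B were called lower, 3 of 10 against 19.7% of all genes.

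**Figure D5:**
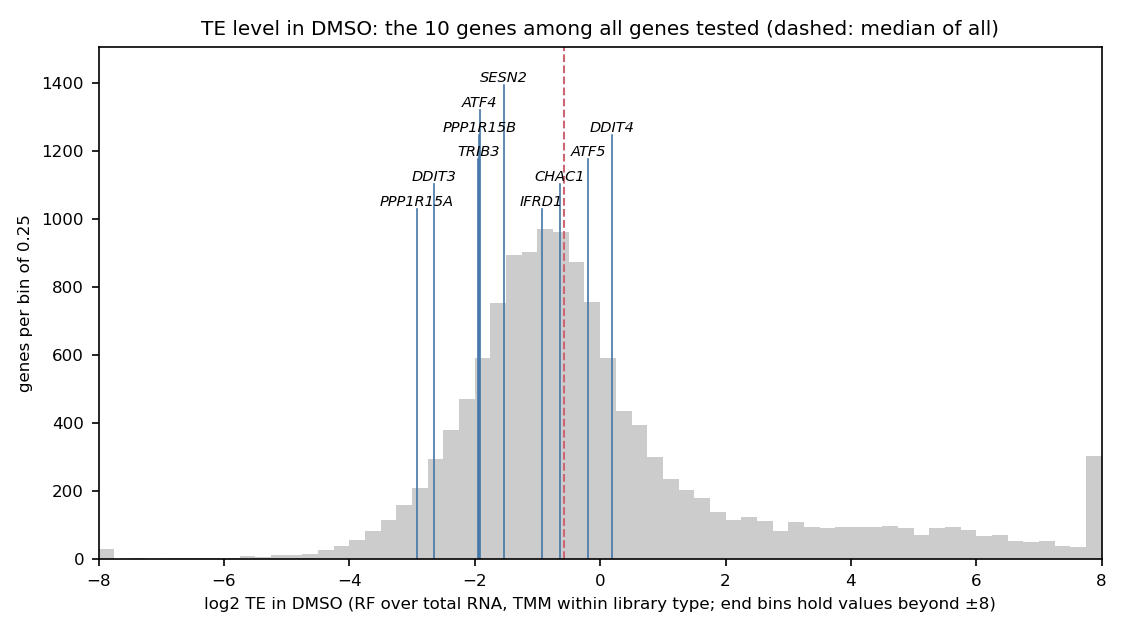
Number of genes (y axis) by log2 TE in DMSO (x axis, bins of 0.25, the end bins also holding values beyond the axis), with the 10 genes as blue lines and the median of all genes, -0.58, as a dashed line. PPP1R15A at -2.93 and DDIT3 at -2.65 lie at the low end of the 10 and DDIT4 at 0.18 at the high end.

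The rest of the pathway was described from 5 further gene lists. Of 12 eIF2 kinases and subunits of eIF2 and of its exchange factor eIF2B, all tested, 3 had a TE estimate above 0 and 9 below, with a median of -0.35, and none passed. EIF2AK3, the kinase PERK of the endoplasmic reticulum, was at -0.60 (SE 0.70), EIF2AK4, the amino acid sensor GCN2, at -0.58 (SE 0.31), EIF2B3 at -1.21 (SE 0.52) and EIF2B1 at 0.57 (SE 0.36). Of 20 tested ATF4 target genes, 10 lay on each side with a median of 0.01. Asparagine synthetase (ASNS) was at -0.43 (SE 0.26), the angiogenic factor VEGFA at 1.57 (SE 0.46) and cystathionine gamma-lyase (CTH) at -3.00 (SE 1.34), and none passed. Of 8 tested mRNAs with other known upstream frames, 3 were above 0 and 5 below. Among these SLC35A4 was at 0.71 (SE 0.66), the tRNA synthetase EPRS at 0.01 (SE 0.21) and the polyamine enzyme SAT1 at -1.13 (SE 0.30), and none passed.

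Genes of the unfolded protein response outside the ATF4 arm split in TE as 5 above 0 and 7 below among 12 tested. The chaperone HSPA5 was at -0.34 (SE 0.20), its cochaperone DNAJC3 at -0.80 (SE 0.31) and EDEM1, a factor of glycoprotein degradation, at 1.24 (SE 0.77), and none passed. Of 6 tested paralogs of the 10 genes, 4 were above 0, with TRIB1 at 0.97 (SE 0.45), and 2 below, with SESN1 at -1.02 (SE 0.90), and again none passed. Of the 58 genes tested in the 5 lists, 6 were lower in TE and 2 higher at an unadjusted p under 0.05, against 6.42% and 6.17% of all genes. The 2 higher were VEGFA and TRIB1, and EIF2B3, CTH, SAT1 and DNAJC3 were among the lower. The other two lower at that p were MDM2, of the mRNAs with upstream frames, and SDF2L1, of the unfolded protein response, both named after their values were seen.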

How the data were processed

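RF and total RNA were measured in 3 DMSO and 3 rapamycin cultures of PANC-1. The authors aligned reads to GRCh37 with HISAT2 and deposited raw counts per protein-coding gene, made with featureCounts from reads that aligned to exons in 1 place only. The authors also deposited FPKM values per gene and isoform of total RNA from Cufflinks 2.2.1 (cuffnorm, version from the submitters' processing notes), and a normalized signal, fragment counts divided by a size factor. Their RiboDiff columns hold their own comparison (TE per treatment, fold change, p-values) and were not used.

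Genes with at least 10 counts summed over RF and 10 over RNA libraries were tested with edgeR 4.0.16 (quasi-likelihood, robust, TMM within library type, Benjamini-Hochberg adjustment, R 4.3.3). The TE change was tested as the type by treatment interaction over all 12 libraries, with the TE level in DMSO from the same fit. RF and RNA were also fitted alone. For single cultures, log2 TE was RF minus RNA log2 CPM with 2 counts added as prior. DESeq2 1.42.0, limma 3.58.1 and other settings served as alternatives. The TE fit pools 1 spread per gene over both library types. On simulated counts its unadjusted p-values were too small where nothing changed, and most calls of DESeq2 were false, while voom with a variance per library type and a culture block did not share this. The simulated libraries were drawn independently, with a spread set by read level and library type only and no effect shared by a culture. They cannot show how these fits behave where cultures or single genes have a spread of their own. Leaders came from GENCODE 44 mapped to GRCh37, matched by Ensembl identifier, and the authors' annotation version differs.

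The members and gene lists were chosen with earlier results of these data known. All members are named, and from each other list the gene with the smallest unadjusted TE p in each direction, with ASNS, EIF2AK3, EIF2AK4, HSPA5, SLC35A4 and EPRS, and the 3 genes most like ATF4 in RF and in RNA. Confidence intervals and the limit for a count of 0 cover these samples and counting error only.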

Additional observations from a re-analysis of the deposited data

How the results depend on the processing

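No gene of the 10 passed the test in RF or RNA under any setting tried, and in TE only ATF5 did, under DESeq2's Wald test, where the count of called genes was 1. The log2 fold changes of single genes kept their sign in 139 of 159 alternative values for TE, 106 of 119 for RF, 151 of 169 for RNA and 98 of 100 for the TE level in DMSO, and the values that changed sign follow. For TE, SESN2 was 0.089 by DESeq2's Wald test, 0.53 with a culture block, 0.66 and TRIB3 -1.12 with voom and a variance per library type, and SESN2 was 0.0046 with DMSO RNA libraries 1 and 2 left out, a choice made after seeing the data. With the 2 smallest RF cultures left out (DMSO 1 and rapamycin 3), TE was -0.025 for PPP1R15B, -0.087 for TRIB3, 0.014 for SESN2 and -0.17 for IFRD1, RF was -0.048 for TRIB3 and -0.20 for IFRD1, and RNA was 0.015 for PPP1R15B. RNA was -0.0076 for CHAC1 and -0.012 for SESN2 with no count filter, and for SESN2 -0.0036 on log2(FPKM + 1) with and without a minimum FPKM, -0.0039 with a pseudocount of 0.1 and -0.0055 on the normalized signal, and it was 0.027 for IFRD1 without the 2 DMSO RNA libraries. With TMM over all libraries the TE level of ATF5 was 0.38, and without those RNA libraries 3 genes were called in TE level. With a prior count of 0.5 in place of 2, 2 genes again were without overlap in log2 TE. The cause of these differences was not tested.

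Leaving out each culture in turn gave TE changes from -0.041 to 0.85 for ATF4, -0.13 to 0.42 for DDIT4, -0.41 to 1.07 for TRIB3, -0.69 to 2.43 for SESN2 and -0.096 to 0.43 for IFRD1. RF changes ran from -0.14 to 0.60 for ATF4, -0.046 to 2.63 for DDIT3, -0.16 to 1.09 for TRIB3, -0.43 to 2.0001 for SESN2 and -0.11 to 0.45 for IFRD1. RNA changes ran from -0.010 to 0.071 for DDIT3, -0.027 to 0.0015 for PPP1R15B, -0.068 to 0.020 for TRIB3, -0.025 to 0.046 for CHAC1, -0.018 to 0.032 for SESN2 and -0.052 to 0.0032 for IFRD1. The TE level of DDIT4 ran from -0.11 to 0.45.

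Between treatments, deviations from the group means were correlated for samples with the same replicate number. The correlation was -0.05 to -0.09 in RF and -0.10 to -0.20 in RNA. For samples with different numbers it was -0.01 to 0.08 in RF and -0.12 to 0.18 in RNA. Deviations within a group cancel out, which ties these values together, so they cannot show whether samples were paired. Between the RF and the RNA library of the same culture the correlation was -0.06 to 0.02. That pairing, used for log2 TE per culture and for the culture block, thus rests on the labels. With a replicate block, 0 of the 10 genes were called in TE, RF or RNA, the TE change was 1.05 for ATF5 and 0.41 for SESN2, which changed sign, and the RF change of TRIB3 was -7e-04, also of another sign. RF depth and the spread between cultures limit these values. The smallest RF library held 144 counts on the 10 genes, and a confidence interval for ATF4 spanned -0.53 to 1.24 in TE. Across all genes, leaving out DMSO culture 3 raised the number called in TE from 0 to 396 (331 lower and 65 higher). In RNA it raised the number to 687 (4 lower and 683 higher). The DMSO RNA libraries then left were 1 and 2, which stood apart in the number of genes with a count. In these calls an effect of treatment thus cannot be told apart from that library difference. With all cultures, DESeq2's Wald test called 1253 in TE.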

Other observations

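Several of the 10 genes were transcribed as isoforms that carry different leaders. For ATF4 the isoform with 6 upstream ATGs was at 137 ± 2.35 FPKM in DMSO and 134 ± 1.64 in rapamycin (SD, n = 3), and a longer one with 7 was at 16.7 ± 0.781 and 15.5 ± 1.40. DDIT3 was spread over more leaders. Its isoform with 3 upstream ATGs, which include the overlapping frame, was at 25.4 ± 2.48 FPKM in DMSO and 24.1 ± 3.28 in rapamycin, and 2 further isoforms without an overlapping frame, with 2 and 5 upstream ATGs, were at 10.3 ± 3.23 and 11.7 ± 0.457 FPKM in DMSO and at 10.7 ± 1.99 and 13.5 ± 1.02 in rapamycin. For TRIB3 an isoform with no upstream ATG was at 1.26 ± 0.310 FPKM in DMSO beside 22.5 ± 0.242 for the isoform with 2. These isoform values are the authors' estimates, and no test was made on them.

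Over the 6 cultures, the genes most like ATF4 in log2 RF CPM were HERPUD2 (Pearson r = 0.974), DENND5B (0.967) and TMEM161A (0.966), among 6131 tested genes with at least 100 RF counts. In log2 RNA CPM they were RPS4X (0.998), CDC6 (0.991) and CRTAP (0.986). With 6 points that share the same libraries, 38 genes in RF and 198 in RNA had an r above 0.9, so these are descriptions only. Of the other genes of the stress response described above with enough counts, ATF5 had an r of 0.245 with ATF4 in RF and 0.904 in RNA, IFRD1 0.123 and 0.442, DDIT4 -0.67 and -0.47, and PPP1R15B -0.76 and -0.31.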
